A study of Mus musculus with 160 samples.

Results

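The 8 genes described here are the hairy-related targets of Notch *Hey1*, *Hey2*, *Heyl*, *Hes1* and *Hes5*, their relative *Hes6*, and *Nrarp* and *Lfng*, which also respond to Notch in many tissues. They were taken by symbol from a table of 46078 mouse genes, and all 8 were matched to a row. RNA had been sequenced from 160 pools of 20 cells sorted from the aorta-gonad-mesonephros (AGM) region, with 20 pools in each of 8 populations. At E10.5 these were *Gata3*-GFP+ and *Gata3*-GFP- endothelial cells (ECs; *Cdh5*-positive, without CD41 or CD45) and *Gata3*-GFP+ and *Gata3*-GFP- hematopoietic cells (HCs; sorted by CD41 and CD45). At E11.5 they were GFP+ and GFP- fractions of mesenchymal cells (MCs; *Pdgfrb*-positive) and sympathetic nervous system cells (SNS; *Ngfr*-positive). All embryos, GFP- fractions included, carried a single *Gata3*-GFP knock-in allele (Gata3-GFP +/-), so that GFP reported *Gata3* transcription in heterozygous cells. Per the study, the cells came from a few biological replicates, each of several pooled embryos, so the pools of a population outnumber its replicates and are repeat draws from them. No pool is tied to a replicate here, so every p-value measures the spread between pools, part of which may be technical, and is too small as a measure over embryos.

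Notch receptors are cleaved after binding a ligand on a neighboring cell, and the freed intracellular part joins the DNA-binding protein RBPJ to switch on target genes. HEY1, HEY2, HEYL, HES1 and HES5 are basic helix-loop-helix repressors that act downstream of it, and HES6 is a relative that opposes HES1 and is abundant in developing neurons. NRARP is a small ankyrin protein that dampens the Notch signal, and LFNG is a glycosyltransferase that alters which ligands a receptor prefers. In embryos *Hey1* and *Hey2* are known for arterial endothelium, *Heyl* for the smooth muscle and pericytes around vessels, and *Hes1* for many progenitors.

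Of the 160 pools 7 were left out for poor sequencing, and the others held 1400824 to 16004756 counts on genes. Levels are given as CPM, the counts of a gene scaled to library size by TMM, and a count of 3 was taken as the floor, which corresponded to a mean of 0.640 to 1.09 CPM in the 8 populations and covers counting error only. *Gata3* itself averaged 78.7 ± 30.01 CPM in GFP+ and 12.2 ± 6.90 CPM in GFP- EC pools (SD, n = 19 and 20), and 50.1 ± 31.4 and 6.91 ± 2.98 CPM (SD, n = 20 each) in GFP+ and GFP- HCs. At E11.5, 12 pools went against their label, 3 of each MC and SNS population. In the 6 of them labelled MC the summed level of 8 mesenchymal markers was 93.99 to 738 CPM, against 2692 to 5596 CPM in the other MC pools, and *Ngfr*, the surface marker of the SNS sort, stood at 28.9 to 324 CPM, against 0.103 to 17.3 CPM. In the 6 labelled SNS the mesenchymal sum was 2822 to 5406 CPM, against 111.7 to 902 CPM in the other SNS pools, and the sum of 6 neural crest markers was 9.18 to 24.4 CPM, against 388 to 1380 CPM. *Gata3* also went against the GFP label in them: the 3 labelled *Gata3*-GFP- MC held 122.7 to 395 CPM and the 3 labelled *Gata3*-GFP+ MC 16.3 to 82.3 CPM, and the 3 labelled *Gata3*-GFP+ SNS held 9.97 to 24.3 CPM and the 3 labelled *Gata3*-GFP- SNS 44.4 to 50.2 CPM. In the other pools *Pdgfrb* was 109.8 to 292 CPM in MCs, *Cdh5* 265 to 1735 CPM in ECs, and *Ptprc* (CD45) 4.66 to 644 CPM in HCs. No pool was given another label, and the E11.5 comparisons of the 8 genes are given with and without these 12. Other E11.5 values are as labelled unless said to be without them.

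**Figure D1:**
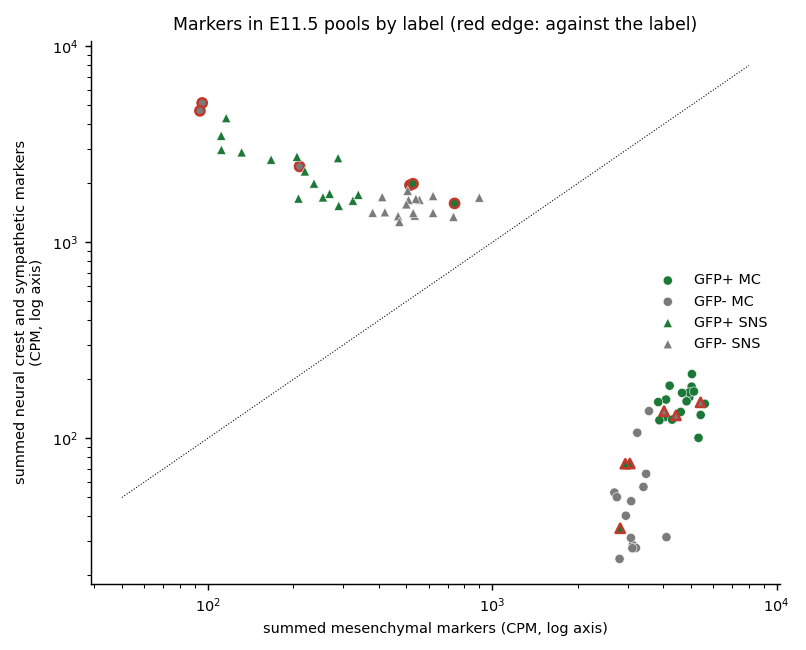
Summed level of 8 mesenchymal markers (x axis, CPM, log scale) against the summed level of 6 neural crest and 8 sympathetic markers (y axis, CPM, log scale) in each E11.5 pool by its label; circles are MC and triangles SNS pools, green GFP+ and gray GFP-, and the dotted line marks equal sums. The 12 pools with a red edge lie on the side of the other cell type: the 6 labelled MC sit at 93.99 to 738 CPM on the x axis and the 6 labelled SNS at 2822 to 5406 CPM.

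Across the 8 populations, as labelled, the genes were led by different cells. *Hey1* and *Hey2* peaked in *Gata3*-GFP+ ECs, at 346 ± 58.7 and 176 ± 38.9 CPM (SD, n = 19), *Heyl* and *Hes1* in *Gata3*-GFP+ MCs, at 183 ± 57.7 and 172 ± 71.1 CPM (SD, n = 20), and *Hes6* in *Gata3*-GFP+ SNS, at 189 ± 99.9 CPM (SD, n = 18). *Nrarp* was highest in *Gata3*-GFP+ ECs at 7.46 ± 4.89 CPM. *Lfng* did not exceed a mean of 3.61 CPM in any population, and *Hes5* did not exceed 1.36 CPM. *Hes5* had 0 counts in 14 of 19 *Gata3*-GFP+ EC pools and in 19 of 20 *Gata3*-GFP- EC pools, and reached 10 counts in no more than 3 pools of any population.

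Ordered by mean, *Hey1* in *Gata3*-GFP+ ECs stood above *Gata3*-GFP+ MCs (67.7 CPM; two-sided permutation test of mean log2(CPM + 1), adjusted over 56 neighboring pairs, p = 9.33e-05), and the next 4 steps down, through *Gata3*-GFP- MCs, *Gata3*-GFP+ SNS, *Gata3*-GFP- ECs and *Gata3*-GFP- SNS (30.4 CPM), did not pass as labelled (permutation test, adjusted p of 0.421 to 0.633). Without the 12 pools the step from *Gata3*-GFP+ SNS to *Gata3*-GFP- SNS passed (41.4 and 25.4 CPM; permutation test, adjusted p = 0.0375). *Gata3*-GFP+ HCs (11.1 CPM) lay below them and *Gata3*-GFP- HCs (1.86 CPM) lowest. *Hey2* fell from *Gata3*-GFP+ ECs to *Gata3*-GFP+ MCs (78.6 CPM) and then to *Gata3*-GFP- MCs (21.9 CPM), each step past the test, as was the next to *Gata3*-GFP- SNS, while *Gata3*-GFP- SNS, *Gata3*-GFP+ HCs, *Gata3*-GFP+ SNS and *Gata3*-GFP- ECs, at 14.6 to 3.68 CPM, held no neighbors that differed. With ERCC scaling the first of these steps did not pass, at 104.3 and 81.4 CPM (permutation test, adjusted p = 0.195), and without the 12 pools the mean in *Gata3*-GFP- SNS was 3.41 CPM. *Heyl* had its 4 highest means in the 4 E11.5 populations and dropped from 54.04 CPM in *Gata3*-GFP- MCs to 5.11 CPM in *Gata3*-GFP+ ECs (permutation test, adjusted p = 9.33e-05). For *Hes1* the last of the 7 steps, from *Gata3*-GFP+ HCs (43.9 CPM) to *Gata3*-GFP- HCs (8.16 CPM), was the one that passed as labelled with TMM. Without the 12 pools that from *Gata3*-GFP- MCs to *Gata3*-GFP+ SNS passed too (146.9 and 80.9 CPM; permutation test, adjusted p = 0.00638), and without TMM that from *Gata3*-GFP- to *Gata3*-GFP+ ECs (adjusted p = 0.0455). No step passed as labelled for *Hes5* or *Lfng*, and without the 12 pools that from *Gata3*-GFP- SNS to *Gata3*-GFP+ MCs passed for *Lfng* (1.48 and 0.298 CPM; permutation test, adjusted p = 0.00229). In all, 15 of 56 neighboring pairs differed at an adjusted p under 0.05, and 18 did without the 12 pools. Endothelial and hematopoietic pools were taken a day before mesenchymal and sympathetic pools, so that stage and cell type cannot be told apart between them.

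**Figure D2:**
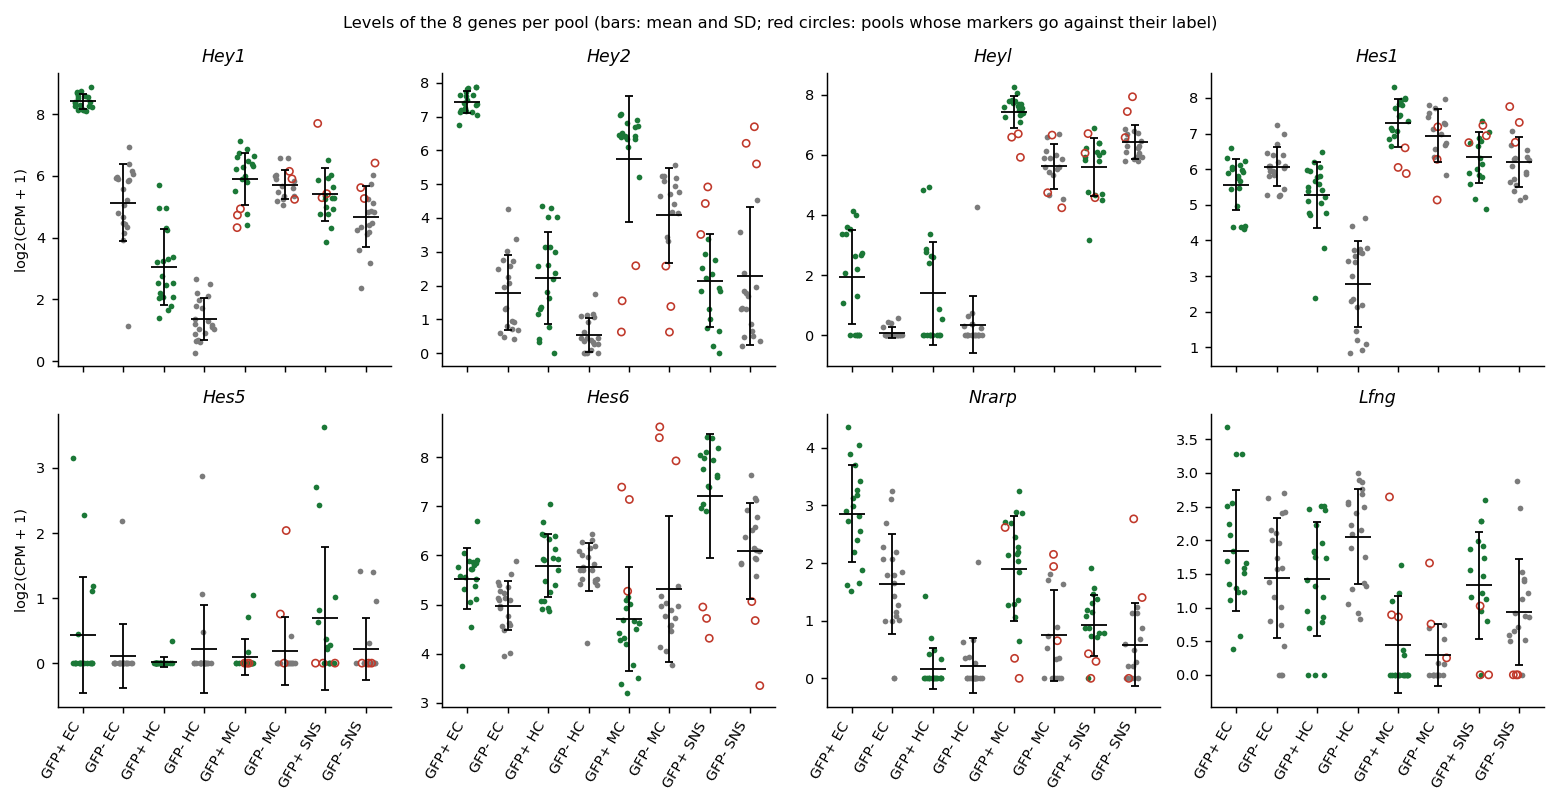
Level of each of the 8 genes, as log2(CPM + 1), in every passing pool of the 8 populations; green points are GFP+ and gray points GFP- pools, red circles are the 12 E11.5 pools whose markers go against their label, and black bars give the mean and SD over all pools of a label. *Hey1* and *Hey2* stand highest in GFP+ ECs (means 346 and 176 CPM), *Heyl* and *Hes1* in GFP+ MCs (183 and 172 CPM) and *Hes6* in GFP+ SNS (189 CPM).

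Per kilobase of merged exon, which allows the genes to be set beside each other, the gene with the highest mean, as labelled, was not the same in all populations. In *Gata3*-GFP+ ECs *Hey1* led with a level of 105.9 CPM per kb, before *Hey2* (38.4), *Hes6* (27.03) and *Hes1* (25.4). In *Gata3*-GFP- ECs *Hes1* led with 34.9 CPM per kb, before *Hes6* (17.8) and *Hey1* (13.7), and *Hey2* stood at 0.802. In HCs *Hes6* led, with 33.2 CPM per kb in GFP+ and 30.8 in GFP- pools, and *Hes1* followed with 21.6 and 4.004. *Hes1* led in *Gata3*-GFP+ and *Gata3*-GFP- MCs, at 84.6 and 66.8 CPM per kb, and *Hes6* in *Gata3*-GFP+ and *Gata3*-GFP- SNS, at 104.2 and 44.6.

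In ECs, 5 members were higher in the *Gata3*-GFP+ pools. *Hey1* ranged from 274 to 474 CPM in the 19 *Gata3*-GFP+ pools, with a median of 334, and from 1.21 to 121.7 CPM in the 20 *Gata3*-GFP- pools, with a median of 41.6. Every GFP+ pool lay above every GFP- pool, and the fitted log2 fold was 2.92 ± 0.25 (SE), or 7.57-fold (edgeR quasi-likelihood test, Benjamini-Hochberg adjusted p = 3.35e-13). *Hey2* ranged from 105.7 to 236 CPM (median 168) in GFP+ pools and from 0.350 to 18.3 CPM (median 2.22) in GFP- pools, again without overlap. Its log2 fold was 5.65 ± 0.31 (SE), or 50.3-fold (edgeR, adjusted p = 9.2e-19). Mice that lack both genes are known to fail in arterial development. Reads of a pool average over its 20 cells, so more cells with a transcript and more of it per cell cannot be told apart.

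*Heyl* was lower than these in GFP+ ECs, at 0 to 16.4 CPM (median 3.604), with at least 10 counts in 10 of 19 pools and 0 counts in 6. In *Gata3*-GFP- ECs it held 0 counts in 16 of 20 pools and no more than 1 count in the others. The summed counts were 337 and 4, a ratio of 73.7 per count sequenced (exact 95% interval 28.5 to 272, counting error only), and the gene passed the test (edgeR, adjusted p = 1.33e-07). *Nrarp* had a range of 1.86 to 19.6 CPM (median 6.48) in GFP+ and 0 to 8.56 CPM (median 2.31) in GFP- EC pools. The groups overlapped, with 6 of 19 GFP+ pools above every GFP- pool, and the log2 fold was 1.43 ± 0.39 (SE; edgeR, adjusted p = 0.00257). *Hes6* had a range of 12.5 to 102.6 CPM (median 51.6) against 14.4 to 57.9 CPM (median 33.2), a log2 fold of 0.57 ± 0.17 (SE; edgeR, adjusted p = 0.00621). With ERCC spike-ins as the scale, which moved the median of all genes from a log2 fold of 0.10 to -0.60, *Hes6* and *Nrarp* were at -0.20 and 0.88 and neither passed, and in a fit of all 8 populations they kept folds of 0.60 and 1.47 and did not pass.

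*Hes1* was not among the genes called. It held 19.01 to 96.02 CPM (median 55.2) in GFP+ and 36.99 to 150 CPM (median 66.1) in GFP- EC pools, and the log2 fold was -0.49 ± 0.19 (SE), short of the threshold (edgeR, adjusted p = 0.0337). On the ERCC scale it was -1.13 and passed, with the median of all genes at -0.60. *Lfng* stood at 3.38 ± 3.15 and 2.19 ± 1.75 CPM (SD, n = 19 and 20), with no call (log2 fold 0.58 ± 0.47, SE; edgeR, adjusted p = 0.317). *Hes5* had too few counts to be tested. Of the 7 genes tested 5 were higher, where 19.5% of all genes tested were, and 0 lower in edgeR, where 16.5% were; *Hes1* was lower at an unadjusted p under 0.05, and DESeq2 called the same 5 genes higher and 0 lower. *Gata3*-GFP+ EC pools also held more mesenchymal marker RNA (median sum 94.5 CPM, range 25.9 to 1579, against 15.6 CPM, 3.87 to 72.2) and more sympathetic marker RNA (median 468 against 45.8 CPM), while *Phox2a* and *Th* of the sympathetic list and *Lum* of the mesenchymal list had medians of 0 CPM in them. Without the pool at 1579 CPM, *Hey1* and *Hey2* gave log2 folds of 2.87 and 5.64, with no overlap between groups.

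Promoters in RefSeq (GRCm38.p6) were read for 5 of the 8 genes, and those of *Hey2* and *Nrarp*, called in ECs, are shown with those of *Hes5*, which was not tested, and *Lfng*, which was tested and not called, so that their letters can be compared. Each line gives the 250 bases before the transcription start, 5′ to 3′ on the strand of the gene, and capitals mark matches to TGGGAA or its other strand TTCCCA, the core letters that RBPJ binds. The *Hey2* window lies at chr10:30842784-30843033 (- strand), *Nrarp* at chr2:25180508-25180757 (+), *Hes5* at chr4:154960673-154960922 (+) and *Lfng* at chr5:140607091-140607340 (+).
Hey2: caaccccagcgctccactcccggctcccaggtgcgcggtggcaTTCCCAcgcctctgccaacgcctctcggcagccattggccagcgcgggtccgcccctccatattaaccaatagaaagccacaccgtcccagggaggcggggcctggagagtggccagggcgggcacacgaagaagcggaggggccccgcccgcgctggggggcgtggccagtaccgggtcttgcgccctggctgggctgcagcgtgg
Nrarp: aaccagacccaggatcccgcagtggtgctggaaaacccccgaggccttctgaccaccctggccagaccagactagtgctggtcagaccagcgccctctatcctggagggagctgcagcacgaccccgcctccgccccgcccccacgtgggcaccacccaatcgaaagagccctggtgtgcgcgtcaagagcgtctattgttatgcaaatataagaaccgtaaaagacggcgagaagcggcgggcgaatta
Hes5: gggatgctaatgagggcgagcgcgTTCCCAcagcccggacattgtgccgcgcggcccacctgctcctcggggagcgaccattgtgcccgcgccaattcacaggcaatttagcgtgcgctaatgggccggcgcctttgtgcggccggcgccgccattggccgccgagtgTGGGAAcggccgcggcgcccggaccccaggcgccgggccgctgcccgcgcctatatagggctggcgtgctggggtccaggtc
Lfng: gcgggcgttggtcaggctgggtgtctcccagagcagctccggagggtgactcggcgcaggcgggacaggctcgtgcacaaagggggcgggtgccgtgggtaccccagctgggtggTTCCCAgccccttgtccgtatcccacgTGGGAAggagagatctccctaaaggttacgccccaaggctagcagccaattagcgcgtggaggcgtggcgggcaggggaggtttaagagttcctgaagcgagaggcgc
The core was found 1 time before *Hey2*, 2 times before *Hes5* in opposite orientations, 2 times before *Lfng* in opposite orientations, and 0 times before *Nrarp* or before either start of *Hes6*. Of 32851 promoters in the table, 21.6% held it in these 250 bases. The longer form GTGGGAA, which overlaps the core, was held by 5.42% of promoters, 1 time by *Hey2*, 2 times by *Hes5* and 1 time by *Lfng*. CACGTG, an E box that HEY proteins can bind, was found 1 time before *Nrarp* and 1 time before *Lfng*, where it overlaps the core, and in 6.02% of promoters. CACNAG, the N box of HES proteins, was found before *Nrarp* 2 times, before *Lfng* 1 time and before the second start of *Hes6* 1 time, and in 36.7% of promoters. The GATA letters AGATAA were found 0 times in these windows and in 9.99% of promoters.

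Upstream of the Notch targets among these genes, the Notch pathway list of 53 genes had 47 tested in ECs, of which edgeR called 25 higher with GFP and 0 lower (median log2 fold 0.63, against 0.10 over all genes tested). Of all genes tested in ECs, 19.5% were higher and 16.5% lower. Of the 4 receptors, *Notch1* stood at 227 ± 45.3 CPM against 80.7 ± 22.6 (SD, n = 19 and 20; log2 fold 1.46), *Notch4* at 183 ± 37.97 against 65.4 ± 27.9 (1.45) and *Notch3* at 66.9 ± 21.6 against 6.62 ± 3.21 (3.29), all past the threshold, and *Notch2* at 21.9 ± 10.8 against 17.9 ± 9.43 (0.26), not past it. Of the ligands, *Jag1* stood at 751 ± 145.1 against 56.1 ± 26.7 CPM (3.71), *Dll4* at 180 ± 47.5 against 30.9 ± 20.8 (2.50) and *Jag2* at 52.8 ± 17.6 against 8.79 ± 4.73 (2.54), all past the threshold. *Dll1* stood at 8.23 ± 9.69 against 9.07 ± 5.37 CPM (-0.19) and was not called. The 5 tested genes of the nuclear complex, *Rbpj* and the *Maml* genes among them, included 0 calls. That list is too short for this to be set apart from the shares of all genes. Of 10 cleavage genes, 7 were higher. Of the related list of 21 genes, 8 of 11 tested were higher and 1 lower, among them the arterial gap junction genes *Gja5* (log2 fold 5.78 ± 0.39, SE) and *Gja4* (3.93 ± 0.35, SE), and *Nr2f2*, a venous regulator that represses Notch in veins, which fell by 3.51 on the log2 scale and did not overlap between groups (17.9 against 199 CPM).

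**Figure D3:**
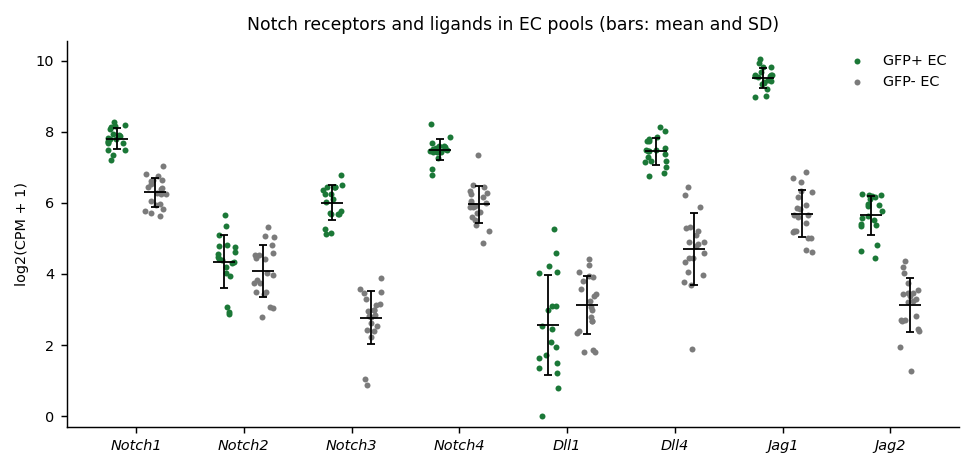
Level of 4 Notch receptors and 4 ligands, as log2(CPM + 1), in each of 19 GFP+ (green) and 20 GFP- (gray) EC pools, with the mean and SD as black bars. *Jag1* (751 against 56.1 CPM), *Notch3*, *Dll4*, *Jag2*, *Notch1* and *Notch4* stand higher in GFP+ pools, and *Notch2* and *Dll1* overlap.

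In HCs, *Hes1*, *Hey1* and *Hey2* were higher in *Gata3*-GFP+ pools. *Hes1* ranged from 4.22 to 87.8 CPM (median 43.1) in the 20 GFP+ pools and from 0.788 to 23.7 CPM (median 8.33) in the 20 GFP- pools, and 18 of 20 GFP+ pools lay above every GFP- pool. The log2 fold was 2.45 ± 0.35 (SE), or 5.46-fold (edgeR, adjusted p = 3.61e-07). *Hey1* was 1.66 to 51.2 CPM (median 5.26) against 0.198 to 5.35 CPM (median 1.30), with 10 of 20 GFP+ pools above every GFP- pool and a log2 fold of 2.61 ± 0.43 (SE; edgeR, adjusted p = 4.54e-06). *Hey2* was 0 to 19.5 CPM (median 3.87) against 0 to 2.40 CPM (median 0.327), with a log2 fold of 3.42 ± 0.57 (SE; edgeR, adjusted p = 6.14e-06).

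*Hes6*, the member with the highest level per kb in HCs, was not called, at 59.97 ± 27.8 and 55.8 ± 16.2 CPM (SD, n = 20 each; log2 fold 0.12 ± 0.18, SE; edgeR, adjusted p = 0.636). *Lfng* stood at 2.11 ± 1.62 and 3.61 ± 2.02 CPM (log2 fold -0.78 ± 0.41, SE; edgeR, adjusted p = 0.137). *Heyl* had 0 counts in 10 of 20 GFP+ and 13 of 20 GFP- pools, and its log2 fold of 2.32 ± 0.95 (SE) missed the threshold (edgeR, adjusted p = 0.0511), although DESeq2 called it at 5.22. *Hes5* and *Nrarp* had too few counts to be tested. Thus 3 of 6 genes tested were higher, where 17.1% of all genes tested were, and 0 lower in edgeR or DESeq2, where 9.53% were in edgeR, and no member was lower at an unadjusted p under 0.05.

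Markers of other cells moved with the same contrast, and 5 of 8 hematopoietic markers were lower in the GFP+ pools and 1 higher (median sum 3091 against 4736 CPM). *Gata3*-GFP+ HC pools had summed mesenchymal markers of 17.9 to 958 CPM (median 355) against 3.37 to 175 CPM (median 42.5), with 0 of the 8 markers at a median of 0 in either fraction, and 7 of the 8 were called higher. Endothelial markers summed to 103.1 to 593 CPM (median 202) against 37.9 to 190 CPM (median 77.4), with 6 of 8 called higher. Sympathetic markers had medians of 106.5 and 9.73 CPM and 8 of 8 called higher, neural crest markers 19.6 and 2.14 CPM, mesonephric epithelium markers 14.8 and 1.08 CPM with 3 of 3 tested called higher, and macrophage markers 3398 and 4494 CPM, and in the GFP+ pools *Phox2a* and *Foxd3* of these lists had medians of 0. The GFP+ pool lowest in mesenchymal markers, at 17.9 CPM, was also the lowest in *Hes1*, at 4.22 CPM. It was a single pool, and it also had the highest macrophage sum of the GFP+ pools, at 8461 CPM. Over all 20 GFP+ pools *Hes1* and the mesenchymal sum gave r = 0.76 and rho = 0.34 (permutation test, adjusted p = 0.0715 and 0.465). Without the 4 GFP+ pools over 500 CPM of mesenchymal markers, the log2 folds were 2.26 for *Hes1*, with 14 of 16 GFP+ pools above every GFP- pool, 1.76 for *Hey1* and 2.79 for *Hey2*, and all 3 still passed. In those 4 pools *Hey1* averaged 30.2 ± 17.1 CPM (SD, n = 4), against 6.37 ± 5.22 CPM (SD, n = 16) in the others. The part of these other cells in the HC results was not tested.

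**Figure D4:**
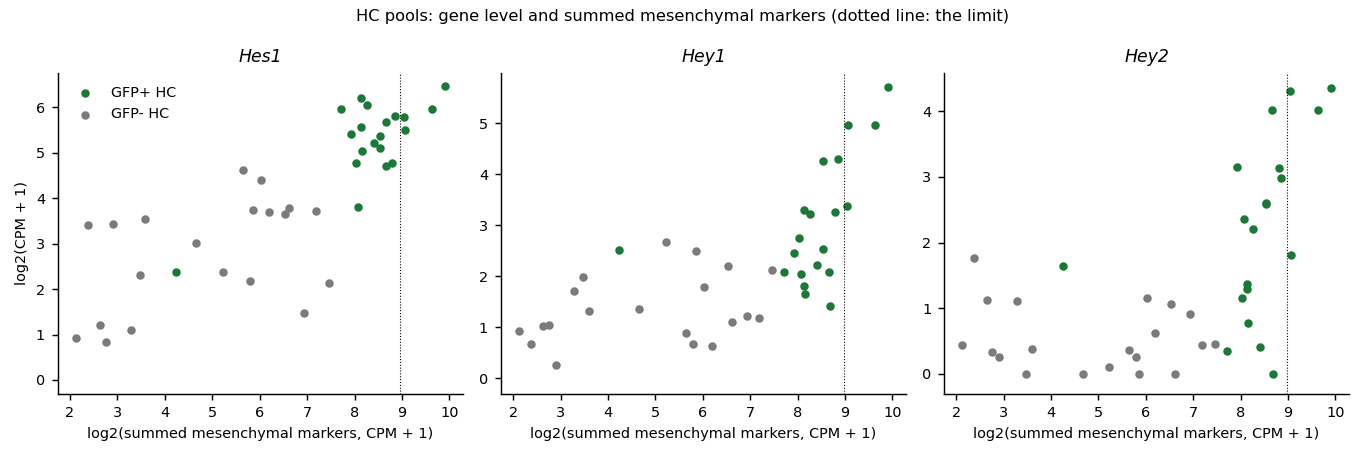
Levels of *Hes1*, *Hey1* and *Hey2*, as log2(CPM + 1), against the summed mesenchymal markers, as log2(CPM + 1), in the 20 GFP+ (green) and 20 GFP- (gray) HC pools; the dotted line is the limit of 500 CPM. The GFP+ pools lie to the right (median 355 against 42.5 CPM) as well as higher, and 4 of them pass the limit.

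The Notch pathway list in HCs had 48 genes tested, 11 higher and 3 lower (median log2 fold 0.10, against 0.05 over all genes), where 17.1% and 9.53% of all genes tested were, so that these counts are near the background. *Dlk1*, an atypical ligand abundant in embryonic stroma, was at 56.4 against 5.10 CPM (log2 fold 3.52 ± 0.47, SE), *Jag1* at 34.03 against 4.40 CPM (3.0 ± 0.39, SE) and *Notch3*, a receptor of mural cells, at 10.7 against 2.01 CPM (2.40 ± 0.48, SE), all past the threshold. Of the related list *Nr2f2*, which was lower in GFP+ ECs, was higher in GFP+ HCs, at 57.8 against 4.79 CPM (3.63 ± 0.43, SE). *Ephb4*, a venous receptor, was at 13.8 against 2.62 CPM (2.43 ± 0.43, SE) and *Gja4* at 15.7 against 4.21 CPM (1.91 ± 0.31, SE).

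The change with GFP differed between HCs and ECs for *Hes1*, whose interaction was a log2 difference of 2.94 ± 0.39 (SE; edgeR, adjusted p = 3.18e-09), and for *Hey2*, at -2.14 ± 0.67 (SE; edgeR, adjusted p = 0.00915). The *Hes1* difference passed in each of 7 alternatives, at 2.85 to 3.43. That of *Hey2* kept its sign but lost the call in 4 of 7, at -1.67 with ERCC scaling, -2.24 with no filter, -2.06 with all pools and -2.16 in a fit of all 8 populations. These were 2 of 7 genes tested, where 22.7% of all genes tested were called in either direction. Without the pools over 500 CPM of mesenchymal markers *Nrarp* passed as well, at -2.99. Averaged over GFP, HCs had less *Hey1* than ECs (log2 fold -4.76 ± 0.25, SE; edgeR, adjusted p = 1.21e-29), less *Nrarp* (-4.21 ± 0.43, SE), less *Hey2* (-3.81 ± 0.30, SE) and less *Hes1* (-1.72 ± 0.20, SE), and more *Hes6* (0.51 ± 0.12, SE; edgeR, adjusted p = 0.00027). The last did not pass in a fit of all 8 populations, at 0.54. Thus 4 of 7 were lower, where 24% of genes tested were, and 1 higher, where 26.6% were. *Lfng* had means of 2.86 and 2.77 CPM in HCs and ECs and was not called (edgeR, adjusted p = 1).

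Among MCs, *Heyl* and *Hey2* were higher in *Gata3*-GFP+ pools, with and without the pools against their label. *Heyl* ranged from 59.5 to 309 CPM (median 189) in the 20 pools labelled GFP+ and from 17.9 to 103.4 CPM (median 47.9) in the 17 labelled GFP-, and 17 GFP+ pools lay above every GFP- pool. Its log2 fold was 1.75 ± 0.20 (SE; edgeR, adjusted p = 2.93e-07). Without the 6 pools the ranges were 136.9 to 309 and 21.9 to 103.4 CPM, which did not overlap, and the log2 fold was 1.85 ± 0.16 (SE; edgeR, adjusted p = 4.28e-10). *Hey2* as labelled ranged from 0.543 to 133.4 CPM (median 84.4) and from 0.541 to 46.1 CPM (median 24.1), with a log2 fold of 1.83 ± 0.44 (SE; edgeR, adjusted p = 0.0048). Its lowest values belonged to pools against their label, where it was 0.541 to 5.01 CPM. Without them it ranged from 35.9 to 133.4 and from 9.02 to 46.1 CPM, with 16 of 17 GFP+ pools above every GFP- pool and a log2 fold of 1.81 ± 0.19 (SE; edgeR, adjusted p = 1.04e-08).

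*Nrarp* passed in MCs only without those pools, with a log2 fold of 2.43 ± 0.62 (SE; edgeR, adjusted p = 0.00453) and means of 3.69 ± 2.20 and 0.668 ± 0.920 CPM (SD, n = 17 and 14), against a log2 fold of 1.78 ± 0.60 (SE; edgeR, adjusted p = 0.0539) as labelled. *Hes1* and *Hey1* were abundant in both fractions and not called: *Hes1* ranged from 57.8 to 318 CPM (median 169) and from 34.1 to 251 CPM (median 138.3; log2 fold 0.33 ± 0.21, SE, and 0.36 ± 0.18, SE, without the pools) and *Hey1* stood at 67.7 ± 33.8 and 54.3 ± 19.1 CPM (SD, n = 20 and 17; 0.31 ± 0.22, SE, and 0.47 ± 0.21, SE, without the pools). *Hes6* went from a log2 fold of -1.15 ± 0.47 (SE) as labelled to -0.28 ± 0.20 (SE) without the pools, in which it held 37.7 to 391.5 CPM, and was not called in either. As labelled 2 of 6 genes tested were higher (2.21% of all genes tested) and 0 lower in edgeR or DESeq2 (2.15% in edgeR), with *Hes6* lower at an unadjusted p under 0.05. Without the pools 3 of 6 were higher (5.52%) and 0 lower in edgeR (4.89%), with 0 lower at an unadjusted p under 0.05, and DESeq2 was not run on these pools. *Lfng* and *Hes5* had too few counts in MCs to be tested. Without the pools the summed mesenchymal markers ran from 3838 to 5596 CPM in GFP+ and from 2692 to 4103 CPM in GFP- MCs, with 4 of 8 called higher and 1 lower, and their part in the result was not tested.

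Of the Notch pathway list in MCs, 7 of 49 genes tested were higher as labelled and 11 of 47 without the pools, and 0 were lower in edgeR in either. Of all genes tested 2.21% were higher and 2.15% lower as labelled, and 5.52% and 4.89% without the pools. At such shares few lower genes would be met in a list of this length. *Jag1* was at 372 against 120.9 CPM (log2 fold 1.61 ± 0.34, SE), and at 417 against 143.5 CPM without the pools (1.53 ± 0.16, SE). *Notch2* was at 310 against 165 CPM without the pools and did not overlap (0.91 ± 0.08, SE), *Notch1* at 55.1 against 29.2 CPM (0.91 ± 0.19, SE), the coactivator *Maml2* at 32.2 against 17.1 CPM (0.90 ± 0.22, SE), *Efnb2* at 179 against 92.7 CPM (0.95 ± 0.12, SE) and *Id4*, an inhibitor of basic helix-loop-helix factors, at 33.5 against 11.3 CPM (1.55 ± 0.28, SE). All of these also passed as labelled, at 0.97 for *Notch2*, 0.89 for *Notch1* and *Maml2*, 0.81 for *Efnb2* and 1.36 for *Id4*.

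In SNS pools *Hes6* was the member called. As labelled it ranged from 18.9 to 339 CPM (median 196) in the 18 GFP+ pools and from 9.20 to 199 CPM (median 68.2) in the 19 GFP- pools, a log2 fold of 1.23 ± 0.31 (SE; edgeR, adjusted p = 0.00869). The call was lost with no filter on genes, at the same fold. Without the 6 pools, in which *Hes6* was 9.20 to 32.4 CPM, it ranged from 118.5 to 339 CPM (median 216) and from 47.1 to 199 CPM (median 76.4), with 8 of 15 GFP+ pools above every GFP- pool and a log2 fold of 1.27 ± 0.19 (SE; edgeR, adjusted p = 6.32e-06). *Gata3*-GFP+ SNS pools had more RNA of sympathetic neuron markers (median sum 1255 CPM, range 634 to 3855, against 389 CPM, 177 to 710, without the 6) and less of neural crest and Schwann cell precursor markers (median sum 826 against 1098 CPM) and in mesenchymal markers (220 against 518 CPM). Of these lists 8 of 8 were called higher, 3 of 6 lower and 7 of 8 lower, and only *Twist1*, in GFP+ pools, had a median of 0. Their part in the result was not tested.

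*Hes1*, whose product HES6 opposes, was not called in SNS, at 88.4 ± 39.4 and 82.1 ± 45.95 CPM as labelled (SD, n = 18 and 19; log2 fold 0.11 ± 0.23, SE) and 80.9 ± 38.2 and 67.5 ± 26.4 CPM without the pools (0.26 ± 0.21, SE). *Heyl* stood at 56.9 ± 30.5 and 93.2 ± 46.5 CPM as labelled (log2 fold -0.71 ± 0.24, SE; edgeR, adjusted p = 0.0609) and at 55.5 ± 29.7 and 78.7 ± 20.6 CPM without the pools (-0.51 ± 0.23, SE; adjusted p = 0.131). *Hey1* stood at 41.4 ± 20.2 and 25.4 ± 15.8 CPM without the pools (0.69 ± 0.27, SE; edgeR, adjusted p = 0.0824) and had a log2 fold of 0.73 ± 0.30 (SE) as labelled. *Hey2*, at 5.90 and 14.6 CPM as labelled (-1.33 ± 0.73, SE), came to 3.07 and 3.41 CPM (-0.18 ± 0.59, SE). *Lfng* was not called, at 1.87 and 1.25 CPM as labelled (0.56 ± 0.57, SE) and 2.17 and 1.48 CPM without the pools (0.52 ± 0.49, SE). Thus 1 of 6 genes tested was higher (2.01% of all genes tested, and 4.94% without the pools) and 0 lower in edgeR (1.86%, and 5.48% without the pools) or, as labelled, in DESeq2, with *Heyl* lower at an unadjusted p under 0.05 in both sets.

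Without the 6 pools the Notch pathway list in SNS had 9 of 49 genes higher and 4 lower, and as labelled 2 of 50 higher and 2 lower. Of all genes tested 4.94% were higher and 5.48% lower without the pools, and 2.01% and 1.86% as labelled. The lower counts are near these shares. The 2 higher as labelled were *Dll3* and *Aes*. Among the ligands *Dll3*, which acts inside the cell and is found in neural precursors, was at 166 against 39.7 CPM (log2 fold 2.08 ± 0.38, SE; 2.05 as labelled), *Dll1* at 13.3 against 2.99 CPM (2.15 ± 0.47, SE) and *Dlk1* at 61.9 against 18.3 CPM (1.75 ± 0.47, SE). *Mfng*, a relative of *Lfng*, was at 83.6 against 21.3 CPM (1.99 ± 0.37, SE). *Dll1*, *Dlk1* and *Mfng* were not called as labelled. For *Dlk1*, 6 of 15 GFP+ pools lay above every GFP- pool and 4 below every GFP- pool, without the 6 pools. *Nr2f2* was at 47.4 against 167 CPM, a log2 fold of -1.83 ± 0.15 (SE). *Jag1* (-1.48 ± 0.38, SE) and *Notch2* (-1.21 ± 0.27, SE) were lower in GFP+ pools as labelled and also without the pools, at -1.40 and -1.30. As labelled *Id1* (0.91 ± 0.16, SE), *Id2* (0.66 ± 0.09, SE) and the corepressor relative *Aes* (0.76 ± 0.11, SE) were higher.

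The change with GFP differed between SNS and MCs for *Heyl* (log2 difference -2.47 ± 0.32, SE, as labelled and -2.36 ± 0.29, SE, without the 12 pools; edgeR, adjusted p = 2.99e-08 and 6.78e-09), for *Hes6* (2.37 ± 0.58 and 1.55 ± 0.27, SE; adjusted p = 0.00206 and 1.73e-05) and for *Hey2* (-3.19 ± 0.86 and -2.09 ± 0.57, SE; adjusted p = 0.00502 and 0.00574). These were 3 of 8 genes tested as labelled, where 9.66% of all genes tested were called, and 3 of 7 without the pools, where 10.4% were. Averaged over GFP and without the 12 pools, SNS had more *Hes6* than MCs (154.3 against 23.3 CPM; log2 fold 2.61 ± 0.14, SE), with no overlap in any pool, and more *Lfng* (2.97 ± 0.51, SE), and less *Hey2* (-3.86 ± 0.30, SE), *Hes1* (-1.18 ± 0.15, SE), *Hey1* (-0.97 ± 0.18, SE) and *Heyl* (-0.67 ± 0.14, SE). That made 2 of 7 higher (20.5% of all genes tested) and 4 lower (19.7%). As labelled the same folds were 1.22, 1.73, -2.18, -0.85, -0.63 and -0.45, the last not called, and 2 of 8 were higher (11.4%) and 3 lower (12%). On the ERCC scale, which moved the median of all genes from 0.00 to 0.48, *Hes1* and *Hey1* were at -0.35 and -0.21 and did not pass. The *Hey1* call was also lost, at -0.63, with no filter and in a fit of all 8 populations.

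**Figure D5:**
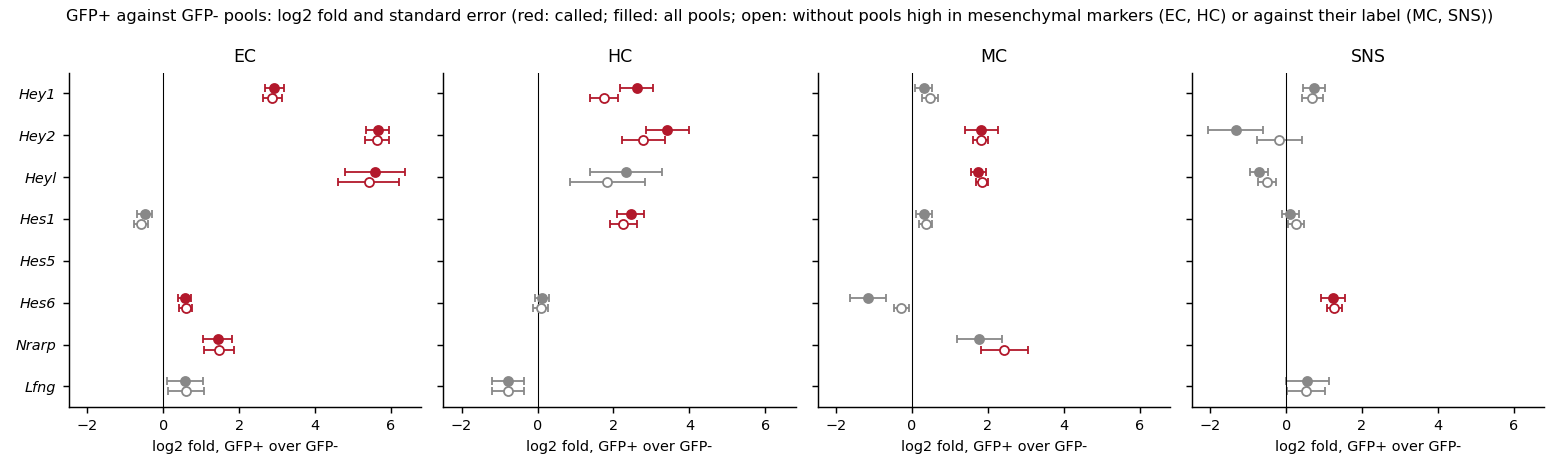
Log2 fold of GFP+ over GFP- pools with its standard error (bars) for each member tested in ECs, HCs, MCs and SNS; red marks calls at an adjusted p under 0.01, filled symbols use all passing pools and open symbols leave out pools high in mesenchymal markers (EC, HC) or against their label (MC, SNS). *Hey2* is called in ECs, HCs and MCs (5.65, 3.42 and 1.83), *Hes1* in HCs (2.45) and *Hes6* in ECs and SNS (0.57 and 1.23).

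*Hey2* was thus called higher with *Gata3*-GFP in 3 of the 4 cell types, *Hey1* in ECs and HCs, *Heyl* in ECs and MCs, *Hes6* in ECs and SNS, *Hes1* in HCs and *Nrarp* in ECs, as labelled. *Lfng* was called in no GFP comparison and *Hes5* was tested in none.  Correlations over the pools of a population were computed for 49 pairs of members, for 40 pairs of a member with *Gata3*, *Notch1*, *Dll4*, *Sox17* or *Cdh5* in ECs, and for 24 pairs of a member with a marker sum in *Gata3*-GFP+ HCs, without the 12 pools. Of these, 0 had an adjusted p under 0.05 by permutation test and 20 an unadjusted p under 0.05. The smallest adjusted p was 0.0625. In *Gata3*-GFP+ SNS *Hey1* and *Hes1* gave a Pearson r of 0.73 (Spearman rho 0.70, n = 15; permutation test, p = 0.00165 and 0.00482, adjusted p = 0.0625 and 0.108), and r = 0.56 without the 2 pools farthest from the median of *Hey1*. *Heyl* and *Hes6* gave r = -0.68 there (rho -0.74; permutation test, p = 0.00446 and 0.00175, adjusted p = 0.0825 and 0.108), and -0.82 without 2 pools. *Hey1* and *Heyl* gave r = 0.70 there (rho 0.63; permutation test, p = 0.00337 and 0.0136, adjusted p = 0.0762 and 0.154), and 0.83 without 2 pools. In *Gata3*-GFP+ HCs *Hey1* and the neural crest marker sum gave r = 0.68 (rho 0.59, n = 20; permutation test, p = 0.00118 and 0.00797, adjusted p = 0.0625 and 0.113), and 0.52 without 2 pools. *Hey1* and the sympathetic sum gave r = 0.65 there (rho 0.59; permutation test, p = 0.00166 and 0.00668, adjusted p = 0.0625 and 0.108), and 0.64 without 2 pools. *Hes1* and the mesenchymal sum gave r = 0.76 there (rho 0.34; permutation test, p = 0.00253 and 0.145, adjusted p = 0.0715 and 0.465), and 0.31 without 2 pools. In *Gata3*-GFP- ECs *Hey1* and *Sox17* gave r = 0.57 (rho 0.65, n = 20, permutation test, adjusted p = 0.0825 and 0.108). The pairs named are those with the smallest adjusted p of r. In *Gata3*-GFP- SNS r was -0.08 for *Heyl* and *Hes6*, 0.34 for *Hey1* and *Hes1*, and 0.30 for *Hey1* and *Heyl* (n = 16).

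Over all passing pools, which differ in cell type and depth, the genes most like each member in log2(CPM + 1) among 16435 genes were found as a description, with no test. They were *Efnb2*, *Col5a2* and *Apbb2* for *Hey1* (Pearson r = 0.89, 0.88 and 0.86), *Fn1*, *Eln* and *P4ha3* for *Hey2* (0.90, 0.89 and 0.88), *Postn*, *Pip4p2* and *Spon1* for *Heyl* (0.89, 0.89 and 0.88) and *Mdk*, *Peg3* and *Gpx8* for *Hes1* (0.87, 0.85 and 0.85). For *Hes6* they were *Nfasc*, *Miat* and *Scg3* (0.78, 0.77 and 0.77), for *Nrarp* *Epas1*, *Unc5b* and *Mrtfb* (0.72, 0.72 and 0.71) and for *Lfng* *Prex1*, *Laptm5* and *Fxyd5* (0.63, 0.62 and 0.60). Between members the highest was *Hey1* with *Hey2* (0.75) and the lowest *Hes1* with *Lfng* (-0.50).

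The genes lie on 7 chromosomes of GRCm38, with *Hes1* at chr16:30064384-30067796 (+ strand), *Hey1* at chr3:8663359-8667256, *Hey2* at chr10:30832359-30842801 and *Heyl* and *Hes5* on the same chromosome, at chr4:123233556-123249875 and chr4:154960923-154962371. Of their exon bases, 79.4% for *Nrarp* and 31.8% for *Hes5* are shared with a gene annotated on the opposite strand, *Gm38287* and *Gm20421*, which held 0 and 2 counts over all pools. Since the strand setting of the counting is not given in the sources used here, reads there may have been set aside as ambiguous, and the low levels of *Nrarp* and *Hes5* are uncertain.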

How the data were processed

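RNA of pools of 20 sorted cells was sequenced by Smart-seq2 with 92 ERCC spike-in RNAs. The authors deposited read counts per Ensembl gene, not normalized. The study's methods name STAR, Ensembl 81 and HTSeq, whereas the submitters' processing notes list GSNAP, HTSeq 0.5.3p3 and mm10. The strand setting is not given in the sources used here. A median of 16.3% of the reads of a pool were in the summary row for ambiguous reads, and the 5 summary rows were left out.

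Groups came from the sample labels, and columns named a population but no pool number. Pools with under 500000 reads, under 20% of reads on genes, or over 20% mitochondrial or ERCC counts were left out (7 of 160), which left 1400824 to 16004756 gene counts per pool. No pair of pools was identical. Symbols were matched to GENCODE M21 for 45229 of 46078 genes. Each comparison was fitted over every gene that reached 10 counts in 5 or more of its pools, by edgeR 4.0.16 (R 4.3.3; TMM, robust quasi-likelihood test). A gene was called when its log2 fold lay beyond 0.1 and its adjusted p (Benjamini-Hochberg) was under 0.01. Levels of 2 populations next to each other in the order of means, and correlations, were tested with 100000 permutations (Python 3.11.15, scipy 1.17.1). In data simulated for the EC comparison on 14973 genes, 43.9% of 2-fold and 64.7% of 4-fold changes were called, and 0 unchanged genes were. The simulated pools were independent draws without embryo replicates, so these values do not cover false calls that come from differences between embryos.

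The 8 genes and all gene lists were chosen with earlier results of these data known. Of the Notch and related lists, up to 6 genes called with the largest change were named per GFP comparison, if 75% of pools in the higher group reached 10 counts, and the receptors and main ligands in ECs. Other values of listed genes, such as those of *Jag1* and *Notch2* in SNS without the 12 pools, were added after they were seen. Alternatives were DESeq2 (1.42.0) size factors and test, ERCC size factors, other filters, all pools, other thresholds and 1 fit of all 8 populations. Leaving out the pools against their label, or those with over 500 CPM of mesenchymal markers, was chosen after seeing the data. Some genes of the lists are not reported here.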

Additional observations from a re-analysis of the deposited data

Results flagged for a closer look

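The change with *Gata3*-GFP was itself different between cell types for 4 members, by the interaction term in edgeR. Between HCs and ECs the log2 difference was 2.94 for *Hes1*, which was at 43.9 against 8.16 CPM in GFP+ and GFP- HCs and at 51.6 against 71.1 CPM in ECs, and -2.14 for *Hey2*, which was higher in the GFP+ pools of both. These were 2 of 7 members tested, near the 22.7% of all genes tested that were called, and the *Hey2* call was lost in 4 of 7 alternatives.

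Between SNS and MCs it was -3.19 for *Hey2*, -2.47 for *Heyl* and 2.37 for *Hes6*, 3 of 8 members tested, where 9.66% of all genes tested were called. Without the 12 pools whose markers go against their label these were -2.09, -2.36 and 1.55, and each still passed. *Heyl* stood at 199.9 against 55.4 CPM in GFP+ and GFP- MCs and at 55.5 against 78.7 CPM in SNS without those pools, and *Hes6* at 21.3 against 25.8 CPM and at 221 against 91.5 CPM.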

How the results depend on the processing

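Of 449 alternative values for the log2 folds of members, 411 kept their direction and their side of the threshold. The calls of *Hey1*, *Hey2* and *Heyl* in ECs (2.22 to 2.96, 5.07 to 5.69 and 5.24 to 5.74), of *Hes1*, *Hey1* and *Hey2* in HCs (2.26 to 2.49, 1.76 to 2.68 and 2.79 to 3.55) and of *Hey2* and *Heyl* in MCs (1.81 to 1.96 and 1.70 to 1.85) were kept in every alternative in which the gene was tested. The folds of *Heyl* in ECs rest on GFP- counts under the floor, so their size is uncertain.

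With ERCC size factors, 3 members were higher and 1 lower in ECs (5 and 0 with TMM), 2 were higher in SNS (1), 0 were lower in the HC and EC interaction (1), 2 were higher in the SNS and MC interaction (1), 2 were higher in HCs than ECs (1) and 1 was lower in SNS than MCs (3). Signs turned for *Hes6* in ECs (-0.20), *Hey1* and *Hes6* in the HC and EC interaction (0.25 and 0.21), *Hes1* and *Lfng* in the SNS and MC interaction (0.15 and 0.41), *Lfng* between HCs and ECs (0.29) and *Heyl* between SNS and MCs (0.05), and 29 correlations passed rather than 0, where values of a pool share its ERCC total. This scale moved the median gene from 0.10 to -0.60 in ECs, from -0.00 to 0.35 in SNS, from 0.11 to 0.75 and from -0.01 to 0.37 in the HC and SNS interactions, and from 0.04 to 0.43 and from 0.00 to 0.48 in the cell type comparisons. Higher calls made up 14.33% of all calls in ECs (54.06% with TMM), 72.44% in MCs (50.72%), 83.32% in SNS (52%), 90.99% and 76.26% in the interactions (62.17% and 53.53%) and 74.69% and 89.21% in the cell type comparisons (52.58% and 48.53%).

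With at least 10 counts in 20 pools, 3 members were higher in ECs and 1 in HCs, since fewer genes were tested. In the fit of all 8 populations 3 were higher in ECs, 1 was lower in HCs (*Hes5*) and 1 in MCs (*Hes6*), and 0 were higher in HCs than ECs. With no filter 1 was lower in HCs (*Hes5*) and 0 were higher in SNS. At an adjusted p under 0.05, 1 was lower in ECs. In the HC and EC interaction 0 were lower with all pools and 2 without the pools high in mesenchymal markers. *Lfng* between HCs and ECs, at -0.00, came to 0.01 with no filter, 0.05 with all pools, 0.00 without those pools and 0.03 in the fit of all populations. Except where fewer genes or pools entered, the cause was not tested. No paired analysis was possible because the columns carry no pool numbers. *Hes5*, *Nrarp* and *Lfng* are limited by depth, with few counts in most populations.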
